A study of Mus musculus with 2 samples.

Results

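The translation initiation and elongation factors described here are the protein-coding mouse genes whose symbols begin with Eif1 to Eif6 or with Eef1 or Eef2, apart from Eif2s3x and Eif2s3y, that were measured in both libraries. They number 65 of the 21474 protein-coding genes and of the 43346 annotated genes in the tables. Eef1akmt4 also has a fitting symbol but its identifier was not matched, and it was not analysed here. RNA came from CH12.LX, an immortalized mouse B-cell lymphoma line labelled as female and as strain B10.H-2aH-4bp/Wts, with no treatment or edited allele named in the labels. There were 2 libraries, from separate biosamples labelled as biological replicates 1 and 2, so there was 1 group, 1 line stands for the cell type, and no condition could be compared.

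Protein synthesis starts when the small ribosomal subunit, loaded with initiator tRNA by the GTP-binding factor eIF2, is recruited to the capped end of an mRNA and scans to a start codon. The cap is bound by eIF4E, which joins the scaffold eIF4G and the RNA helicase eIF4A in the eIF4F complex, while eIF3 bridges this complex and the small subunit. In elongation, eEF1A delivers aminoacyl-tRNA to the ribosome, eEF1B recharges eEF1A with GTP, and eEF2 moves the ribosome along by a codon. Growing lymphocytes are known to control these steps through mTOR, which releases eIF4E from its binding proteins, and through kinases that phosphorylate eIF2 under stress.

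Libraries held 24469094 and 23586580 expected counts (estimated reads per gene) in replicates 1 and 2. TPM, a measure of relative transcript abundance, scales counts by transcript length and to the same total in each library, and is the scale of all levels below unless counts are named. The B-lineage markers Cd79a, Cd79b, Ms4a1, Cd74, Pax5 and Ighm were each at 1 TPM or more in both replicates, from Pax5 at 9.09 and 7.77 TPM to Cd74 at 2476 and 2243 TPM. None of 4 T-cell markers (summed 0.29 and 0.31 TPM, Cd3e at 0) and none of 4 myeloid markers (summed 0.81 and 0.78 TPM, S100a8 at 0) reached that level. Of 3 genes listed together as stromal and epithelial markers only Pecam1 did, at 14.2 and 15.5 TPM. Col1a1 was at 0 and 0.01 TPM and Epcam at 0.84 and 1.23 TPM.

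Several translation factor mRNAs are textbook carriers of a pyrimidine run at their 5′ end, the element through which mTOR controls their translation, so the annotated starts are shown before the levels. Below are the first 20 bases, 5′ to 3′, of the highest transcript of 5 factors with such a run and of Eef1a1 and Eef2, the elongation factors best known for it, from GENCODE M21 on GRCm38. Capitals mark a C within the first 6 bases that is followed by at least 4 more C or T; Eef2-201 holds such a run only further in, where it is not marked.
Eif3f-201: CTCTTTCTCggcaagatggc
Eif3c-201: aaCCTTTTCCTCTTCCggcg
Eif3k-201: acaCCTCTCTTCCggtcctc
Eif3i-201: agtCTTTTTCCggtcccact
Eif4h-201: ggtCCTTCCTCgctggcccg
Eef1a1-201: ttcccgagggtgggggagaa
Eef2-201: gttgacgtcagcggtctctt

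Of the 60 factors at 1 TPM or more, 11 had such a run within the first 6 bases of their highest transcript, 18.3% of the factors beside 10.9% of 9801 expressed protein-coding genes. Of those 11, Eif3c, Eif3f, Eif3i, Eif3j2 and Eif3k belong to eIF3, which held 14 of the 60 factors. RefSeq starts (GRCm38.p6) were searched on the gene's strand within 5 bases of the start, and a gene counted if any of its starts matched. There 12 of the 49 factors in the promoter table had a run, 24.5% beside 21.2% of all 27025 genes. The eIF3 genes among them were Eif3b, Eif3f and Eif3l, and only Eif2ak3, Eif2b2 and Eif3f were found by both searches. Only Eif3f had its C exactly at the RefSeq start, 1 of 49 factors beside 3.01% of all genes searched there. Factors with a run in the highest transcript had a median level of 164.5 TPM (n = 11) and those without one 153.9 TPM (n = 49). These are matches in annotated sequence and depend on the annotation. For Eef1b2, Eif1, Eif1ax and Eif4g2 the highest transcript was not annotated as protein coding, so their coding transcripts were not searched in GENCODE. The GENCODE start of Eef1a1-201 and of Eef2-201 held no match in the first 6 bases. Around RefSeq starts, however, Eef1a1 was among the 12 factors with a run, and still had one when at least 7 more C or T were required.

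RNA for most of the factors was abundant. In bulk RNA, fewer cells with a transcript and less of it per cell cannot be told apart. At 1 TPM or more in both replicates were 60 of 65 factors, beside a background of 45.9% of all protein-coding genes, and at 100 TPM or more were 34 of 65, beside 5.88%. The median level over all 65 was 117.5 TPM in replicate 1 and 122.0 TPM in replicate 2. Among the 60 expressed factors the median was 159 ± 3.48 TPM (SD, n = 2), and among the 9862 expressed protein-coding genes it was 19.1 ± 0.0495 TPM. The 65 factors together took 3.36% and 3.35% of all TPM, and 4.05% and 3.99% of all counts. Eef1a1 alone was 48.7% ± 0.335 of the factors' TPM, and the 5 highest genes, Eef1a1, Eif5a, Eif4a1, Eef2 and Eef1g, were 66.6% ± 0.331.

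**Figure D1:**
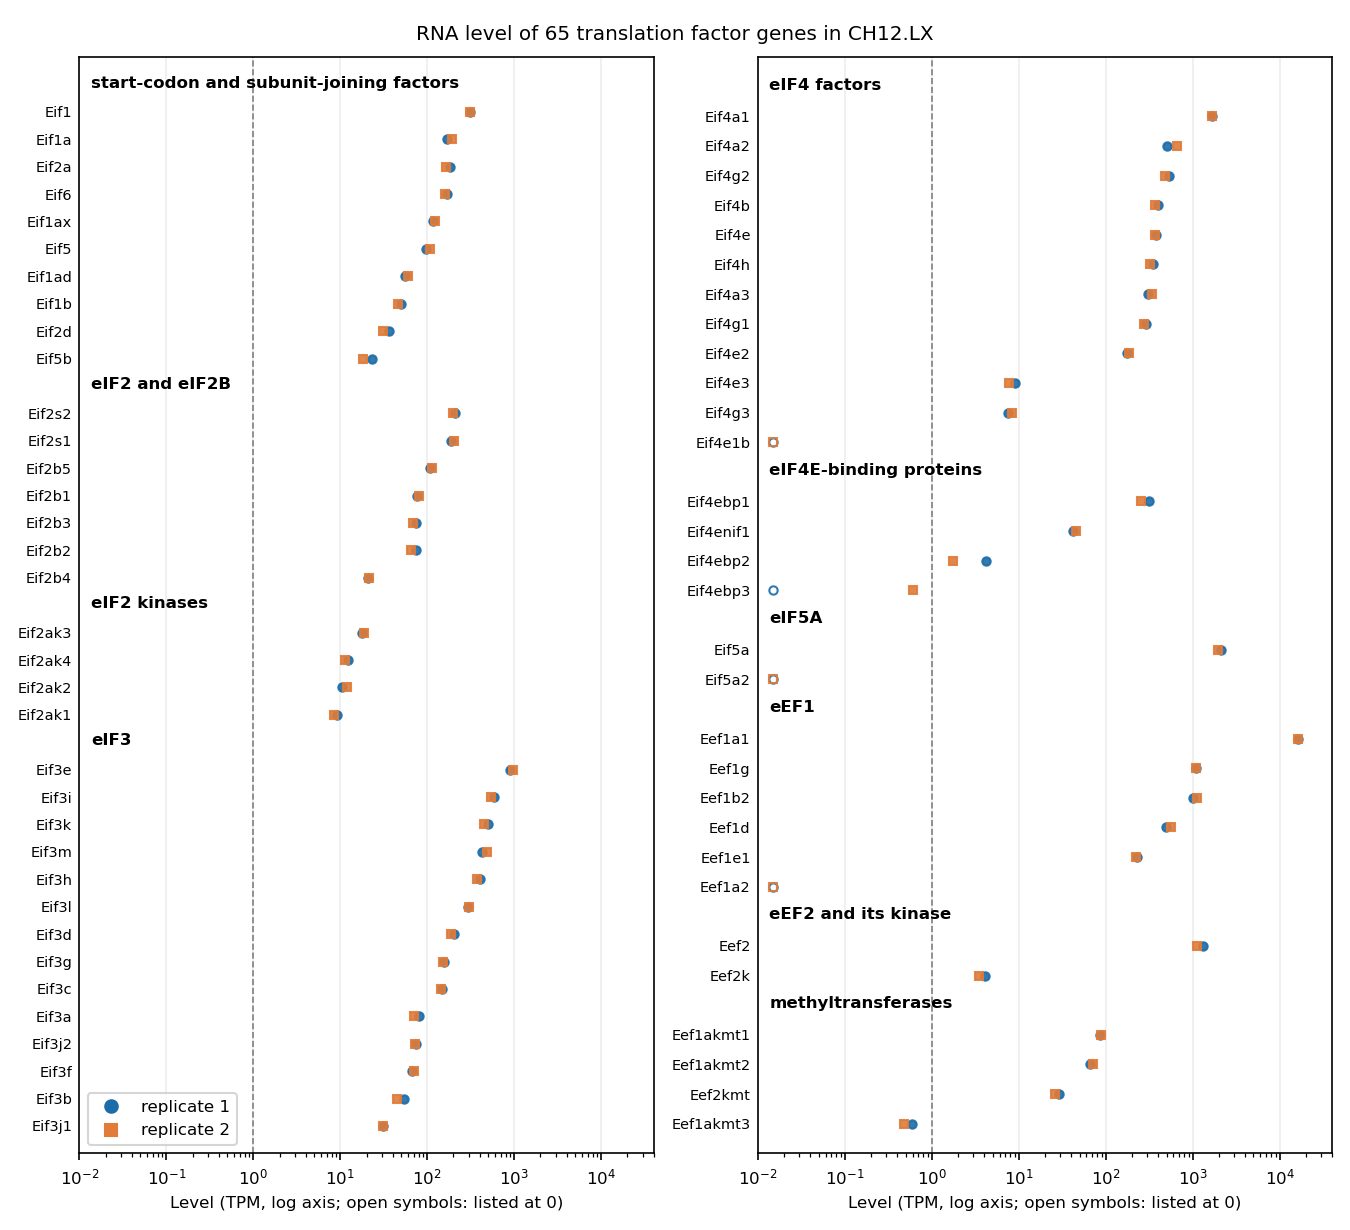
Level of each of the 65 factors in TPM on a log axis, grouped by role, with circles for replicate 1 and squares for replicate 2; open symbols at the left edge are genes listed at 0 and the dashed line is 1 TPM. Eef1a1 lies at 16279 and 16412 TPM, Eef1a2, Eif4e1b and Eif5a2 are at 0 in both replicates, and the 2 symbols of most genes overlap.

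The genes grouped here as start-codon and subunit-joining factors were moderately abundant, with a median of 111 TPM over 10 genes, all expressed. Eif1, which guards start codon choice during scanning, was the highest of them at 311.6 and 306.0 TPM. On protein-coding transcripts alone it was at 124.0 and 120.6 TPM, under Eif1a (167.6 and 192.1 TPM) and Eif6 (158.3 and 160.6 TPM). Its paralogue Eif1b stood at 49.4 and 46.3 TPM, so Eif1 made up 86.6% ± 0.387 of the pair. Eif1a and the X-linked Eif1ax both encode eIF1A, which works beside eIF1 on the small subunit. The level of Eif1a was 167.6 and 192.1 TPM and that of Eif1ax 117.5 and 122.0 TPM, a share of 59.97% ± 1.69 for Eif1a. Eif1a exceeded Eif1ax in each replicate.

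Eif6, which keeps the large subunit from joining early, was at 167.1 and 161.9 TPM. Eif5, the GTPase-activating protein of eIF2, was at 95.4 and 107.6 TPM. Eif5b, the GTPase that joins the subunits, was the lowest of the 10 at 22.94 and 18.01 TPM. The ratio of Eif5 to Eif5b was 4.16 in replicate 1 and 5.98 in replicate 2, which is a wide spread for a pair of replicates. The other genes of this role were Eif2a at 184.3 and 163.1 TPM, Eif1ad at 55.4 and 59.4 TPM and Eif2d, which can deliver tRNA without eIF2, at 36.0 and 31.3 TPM.

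Within eIF2 the measured subunit genes were level with each other. Eif2s1, the alpha subunit that stress kinases phosphorylate, was at 187.4 and 203.6 TPM. Eif2s2, the beta subunit, was at 206.95 and 195.4 TPM. Eif2s2 was the higher in replicate 1 and Eif2s1 in replicate 2, so their order did not hold across replicates. Genes of the gamma subunit are outside the rule that chose the factors.

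The 5 subunits of eIF2B, the exchange factor that recharges eIF2 with GTP, were all expressed and less even. Eif2b5, the catalytic subunit, was the highest at 106.5 and 113.2 TPM. Eif2b1, Eif2b2 and Eif2b3 lay between 64.6 and 80.3 TPM in both replicates. On protein-coding transcripts alone Eif2b2 was lower, at 38.5 and 36.3 TPM. Eif2b4 was the lowest at 20.5 and 21.3 TPM, a gap of 5.25 ± 0.0952 times to Eif2b5. That gap was many times the spread between replicates, while Eif2b2 and Eif2b3 had the same level in replicate 1.

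All 4 kinases of eIF2 alpha were expressed at low levels, with a median of 11.5 TPM. Eif2ak3 (PERK), the sensor in the endoplasmic reticulum, was the highest at 17.6 and 18.8 TPM. Eif2ak4 (GCN2), which senses uncharged tRNA, was at 12.4 and 11.4 TPM. Eif2ak2 (PKR), which binds double-stranded RNA, was at 10.4 and 11.9 TPM. Eif2ak1 (HRI), the kinase regulated by heme, was at 9.11 and 8.43 TPM. Eif2ak3 held 36.3% ± 1.13 of the kinases' TPM and was the highest in each replicate, whereas Eif2ak4 and Eif2ak2 changed order between replicates by TPM. Their substrate Eif2s1 exceeded Eif2ak3 by 10.8 ± 0.140 times.

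The eIF3 complex was the widest in level, with 14 expressed genes and a median of 175 TPM. Eif3e was the highest at 902.7 and 963.8 TPM and Eif3j1 the lowest at 30.84 and 31.01 TPM, a ratio of 30.2 ± 1.28. Eif3j1 and Eif3j2 encode near-identical versions of a loosely bound subunit, and without them the ratio was 18.9 ± 3.33, between Eif3e and Eif3b. Eif3b, a core scaffold subunit, was at 54.5 and 45.3 TPM, and Eif3a, the other large scaffold subunit, at 79.3 and 71.0 TPM. Eif3c was at 147.9 and 141.9 TPM.

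Other high genes of the complex were Eif3i at 578.2 and 535.6 TPM, Eif3k at 499.0 and 448.7 TPM, Eif3m at 429.2 and 488.5 TPM and Eif3h at 404.2 and 375.9 TPM. Eif3k and Eif3m changed order between replicates, so these neighbours did not differ beyond their spread. Eif3l was at 291.1 and 299.3 TPM, Eif3d at 205.4 and 186.1 TPM and Eif3g, which binds RNA, at 156.2 and 151.6 TPM. Eif3f was at 66.8 and 70.3 TPM. Its level was under that of Eif3a and of Eif3j2 in each replicate, closely so in replicate 2.

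**Figure D2:**
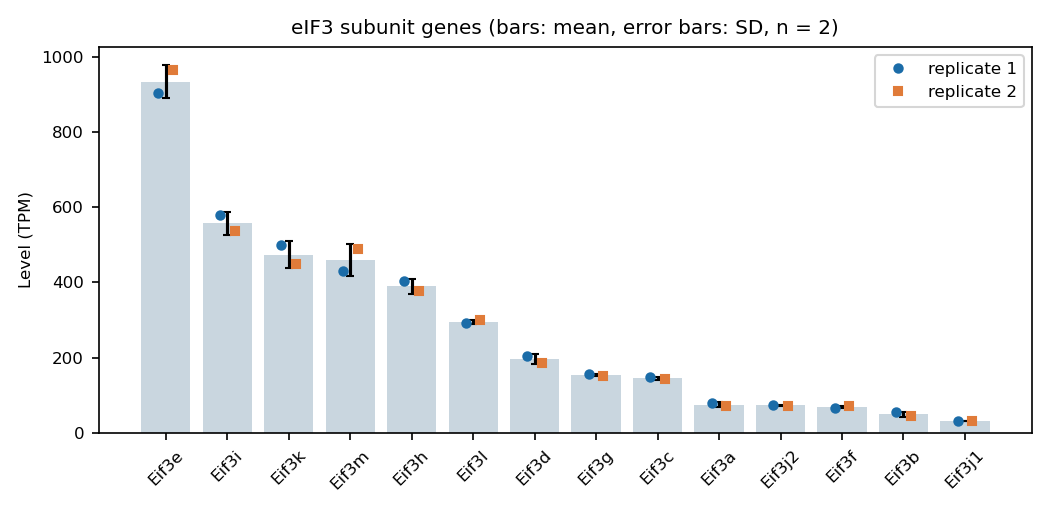
Level of the 14 eIF3 genes in TPM on a linear axis, ordered by mean; bars are means, error bars the SD of 2 replicates, circles replicate 1 and squares replicate 2. Eif3e stands above 900 TPM in both replicates, and 5 genes lie under 100 TPM.

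The 2 eIF3j genes could not be separated well. Of the 31-base words in transcripts of Eif3j2, 94.9% also occurred in another gene, 93.95% in Eif3j1, and 38.1% of the words of Eif3j1 occurred in Eif3j2. Eif3j2 was the only factor with over 50% of its words shared, 1 of 65 beside a background of 7.76% of protein-coding genes. By TPM Eif3j2 held 70.2% ± 0.579 of the pair, at 74.1 and 71.6 TPM. By expected counts it held 49.6% ± 0.825, with 3337 and 3097 counts beside 3307 and 3215 for Eif3j1. The deposited posterior SD of these counts was 47.0 and 48.0 for both genes. Their division is therefore given as uncertain.

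Among the eIF4 factors, 11 of 12 were expressed, with a median of 330 TPM. Eif4a1, the main helicase gene (chromosome 11, positions 69666936 to 69672423, minus strand), was at 1662 and 1681 TPM. Eif4a2, its close paralogue (chromosome 16, positions 23107444 to 23114136, plus strand), was at 504.1 and 654.7 TPM. Eif4a3, which encodes the helicase of the exon junction complex, was at 306.5 and 339.1 TPM. Eif4a1 held 67.2% and 62.8% of the family, Eif4a2 20.4% and 24.5%, and Eif4a3 12.4% and 12.7%. Eif4a1 was the highest in each replicate, and Eif4a2 exceeded Eif4a3 in each. On protein-coding transcripts alone the latter order turned, with Eif4a2 at 139.2 and 180.9 TPM and Eif4a3 at 273.4 and 280.9 TPM.

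Counts were also assigned to a pseudogene of Eif4a1. Eif4a-ps4, a processed pseudogene on chromosome 1 (positions 60703932 to 60705149, GENCODE M21 on GRCm38) and so no member of the factors, was listed at 658.6 and 598.2 TPM, with 13699 and 11943 expected counts. Aligned over all 1218 of its bases with Eif4a1-213, it had 1 substitution and 0 gaps, an identity of 99.9%. The 60 bases around that substitution lie in the coding sequence of Eif4a1 and are shown because they hold all the sequence that tells the aligned stretches apart, with the differing base in capitals.
Eif4a1-213, bases 520 to 579: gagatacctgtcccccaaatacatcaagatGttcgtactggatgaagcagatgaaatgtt
Eif4a-ps4-201, bases 504 to 563: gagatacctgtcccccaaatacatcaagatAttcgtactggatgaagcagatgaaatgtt

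The longest run identical in both transcripts was 684 bases, and 25.6% of the 31-base words of Eif4a1 occurred in Eif4a-ps4. The deposited posterior SD was 92.8 and 81.3 counts for each gene of this pair. With the pseudogene's TPM added to Eif4a1, the share of Eif4a1 in its family was 71.9% ± 3.17, an alternative chosen after these values were seen. How many of the pseudogene's reads came from Eif4a1 was not tested.

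The cap-binding family was led by Eif4e, at 373.9 and 372.9 TPM. Eif4e2, whose protein binds caps but does not bind eIF4G, was at 175.2 and 187.2 TPM, and Eif4e3 was at 9.04 and 7.74 TPM. Eif4e1b, known from the germ line, had 0 counts in both replicates, so that its level could be at most 0.191 and 0.199 TPM at a floor of 3 counts. Eif4e was thus at least 1953-fold and 1870-fold higher than Eif4e1b in the 2 replicates. By TPM, Eif4e held 66.3% ± 0.928 of the family and Eif4e2 32.2% ± 1.11.

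Of the scaffold genes, Eif4g1 was at 293.3 and 275.0 TPM, Eif4g2 at 532.2 and 478.2 TPM and Eif4g3 at 7.60 and 8.37 TPM. Eif4g2 encodes a relative (DAP5) that lacks the eIF4E-binding part. It held 63.3% ± 0.773 of the family's TPM and was above Eif4g1 in each replicate. This order turned with the scale: on protein-coding transcripts alone the share of Eif4g2 was 47.7% ± 1.83, and by expected counts, which are not per length, 44.9% ± 0.725. Eif4b and Eif4h, which stimulate the helicase, were at 403.4 and 366.3 TPM and at 353.1 and 322.1 TPM.

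**Figure D3:**
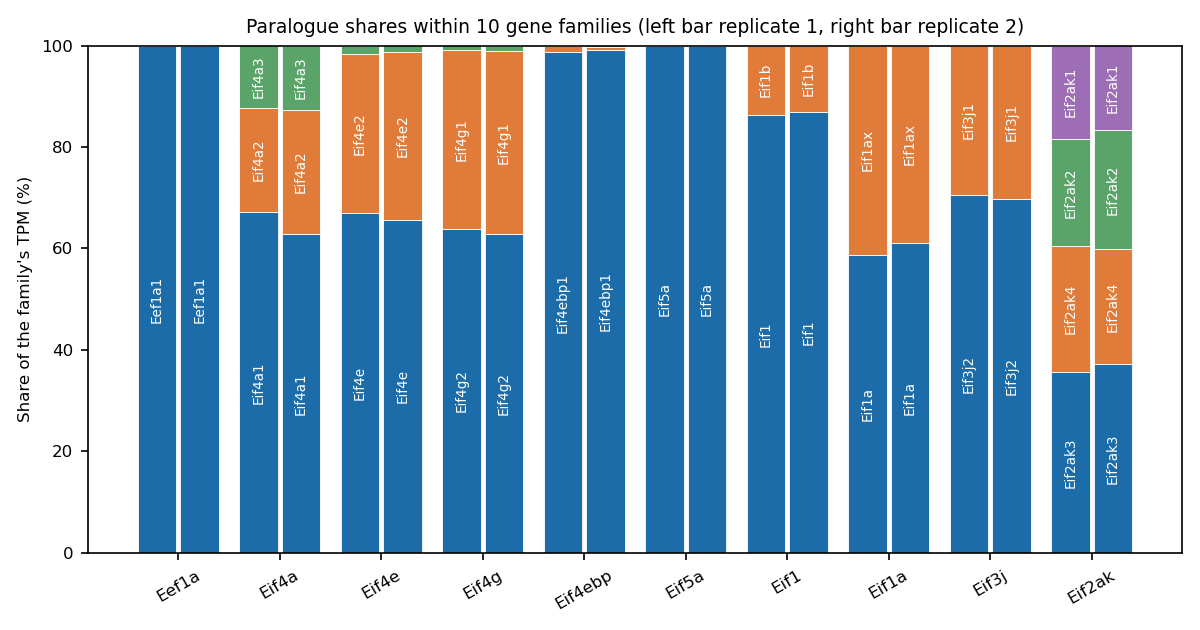
Share of each gene in the summed TPM of 10 paralogue families, in percent, with the left bar of each pair for replicate 1 and the right bar for replicate 2; genes under 8% carry no name. Eef1a1, Eif5a and Eif4ebp1 fill nearly all of their families, and each of the 4 eIF2 kinases holds a visible part of theirs.

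The eIF4F subunits were unequal in RNA: Eif4a1 was 4.48 ± 0.0445 times Eif4e and 5.89 ± 0.315 times Eif4g1. Among the eIF4E-binding proteins, which block the assembly of eIF4F until mTOR phosphorylates them, Eif4ebp1 (chromosome 8, positions 27260329 to 27276674, plus strand) was by far the highest at 311.2 and 255.1 TPM. Eif4ebp2 (chromosome 10, positions 61428491 to 61452661, minus strand) was at 4.17 and 1.75 TPM, from 134 and 55 counts. Eif4ebp3 had 0 counts in replicate 1, a limit of 0.275 TPM, and 0.60 TPM in replicate 2 from 6.24 counts. Eif4ebp1 held 98.7% and 99.1% of the 3 genes' TPM. Eif4e exceeded Eif4ebp1 by 1.202 times in replicate 1 and 1.46 times in replicate 2, a small excess that varied with Eif4ebp1. Eif4enif1, which encodes the eIF4E transporter, was at 41.9 and 45.7 TPM.

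Eif5a, whose hypusine-bearing protein helps the ribosome through stalling sequences (chromosome 11, positions 69916714 to 69921958, minus strand), was the second highest factor at 2097 and 1940 TPM. Eif5a2 had 0 counts in both replicates, so that its level could be at most 0.0299 and 0.0311 TPM. Eif5a was at least 70176-fold and 62281-fold higher.

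The highest elongation factor was Eef1a1 (chromosome 9, positions 78478449 to 78489151, minus strand), which ranked 2nd of all protein-coding genes, with 413228 and 394971 counts. The paralogue Eef1a2, known from neurons and muscle, had 0 counts in both replicates, so Eef1a1 was at least 211099-fold and 204212-fold higher per length. Of the 31-base words of Eef1a1, 44.8% occurred in another gene, most of them in Gm13456 (33.8%), while the posterior SD of its counts was 22.1 and 24.7. Eef2 (chromosome 10, positions 81176631 to 81182498, plus strand) was at 1303 and 1115 TPM. Eef1a1 exceeded Eef2 by 12.5 and 14.7 times. On protein-coding transcripts alone Eef1a1 was lower, at 12541 and 12348 TPM, while Eef2 was unchanged. By expected counts, which are not per length, the ratio was 5.71 ± 0.610. Eef2k, the kinase that inhibits eEF2, was at 4.05 and 3.48 TPM, 321 ± 0.851 times under Eef2.

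The exchange complex eEF1B was abundant in all its parts. Eef1g, the gamma subunit, was at 1084 TPM in each replicate, Eef1b2, the alpha subunit that exchanges the nucleotide, at 1001 and 1111 TPM, and Eef1d, the delta subunit, at 497.9 and 563.4 TPM. Eef1g and Eef1b2 changed order between replicates, and both were above Eef1d in each. On protein-coding transcripts alone Eef1b2 was the lowest of the 3, at 137.0 and 175.4 TPM beside 479.1 and 542.7 TPM for Eef1d. Of the 31-base words of Eef1g, 30.3% occurred in another gene (24.7% in Gm5525), with a posterior SD of 1.02 and 0.76 counts. Over all 65 factors, 29 shared under 1% of their words and 9 had a posterior SD over 1 count. No share over all genes is given here for either number. Eef1e1, which belongs to the aminoacyl-tRNA synthetase complex, was at 229.8 and 225.5 TPM. The methyltransferase genes were lower: Eef1akmt1 was at 86.0 and 88.8 TPM, Eef1akmt2 at 66.6 and 72.2 TPM, Eef2kmt at 28.8 and 26.0 TPM and Eef1akmt3 at 0.59 and 0.48 TPM.

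The transcript tables divided some of these genes unevenly between coding and other transcripts. For the 55 factors at 10 TPM or more in both replicates, the median share of TPM on annotated protein-coding transcripts was 99.1%, beside 97.9% for all such genes. It was over 99% in 28 of 55 factors (background 44.5%) and under 80% in 12 of 55 (background 20.4%). It was under 50% in 5 of 55, Eef1b2, Eif4a2, Eif1, Eif4g2 and Eif1ax, beside a background of 6.39% of 6482 genes. By expected counts only Eef1b2 and Eif4a2 were under 50%.

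Eef1b2 (chromosome 1, positions 63176825 to 63180486, plus strand) had 13.7% and 15.8% of its TPM on protein-coding transcripts. Its highest transcript was Eef1b2-205, of 691 nt and annotated as a target of nonsense-mediated decay, the pathway that destroys mRNAs with early stop codons. That transcript was at 748.5 and 825.3 TPM and the coding Eef1b2-204, of 1939 nt, at 126.1 and 140.8 TPM. By expected counts the coding share was 35.9% ± 1.03. With coding transcripts alone, the ratio of the highest to the lowest eEF1B subunit was 6.20 ± 0.704, in place of 2.07 ± 0.145.

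Eif4a2 had 27.6% of its TPM on protein-coding transcripts in each replicate, 42.2% ± 1.39 on retained-intron transcripts and 30.2% ± 1.45 on transcripts annotated for nonsense-mediated decay. By expected counts its coding share was 47.4% ± 0.801. Of its 31-base words, 2.64% occurred in Snora81, a small nucleolar RNA gene. The highest transcript was still the coding Eif4a2-202, at 133.9 and 178.4 TPM. On coding transcripts alone Eif4a1 held 76.5% ± 0.447 of the Eif4a family, against 65.03% ± 3.09 of all TPM.

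Eif1, Eif4g2 and Eif1ax differed between scales. Eif1 had 39.8% and 39.4% of its TPM on coding transcripts and 77.7% ± 0.295 of its counts. Its highest transcript by TPM was Eif1-203, of 447 nt with no annotated reading frame, at 116.1 and 112.1 TPM, level with the coding Eif1-201 at 114.9 and 108.5 TPM. Eif4g2 had 39.1% and 42.7% by TPM and 93.01% ± 0.372 by counts, with Eif4g2-207, of 429 nt, at 249.1 and 200.4 TPM. Eif1ax had 43.7% and 45.4% by TPM and 95.4% ± 0.204 by counts, with the retained-intron Eif1ax-202, of 416 nt, at 66.1 and 66.6 TPM. In these 3 genes a short transcript took a much larger part of the TPM than of the counts. Eif1-203 was 37.0% of its gene's TPM and 15.3% of its counts. Eif4g2-207 was 44.4% and 4.63%, and Eif1ax-202 was 55.4% and 4.64%.

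**Figure D4:**
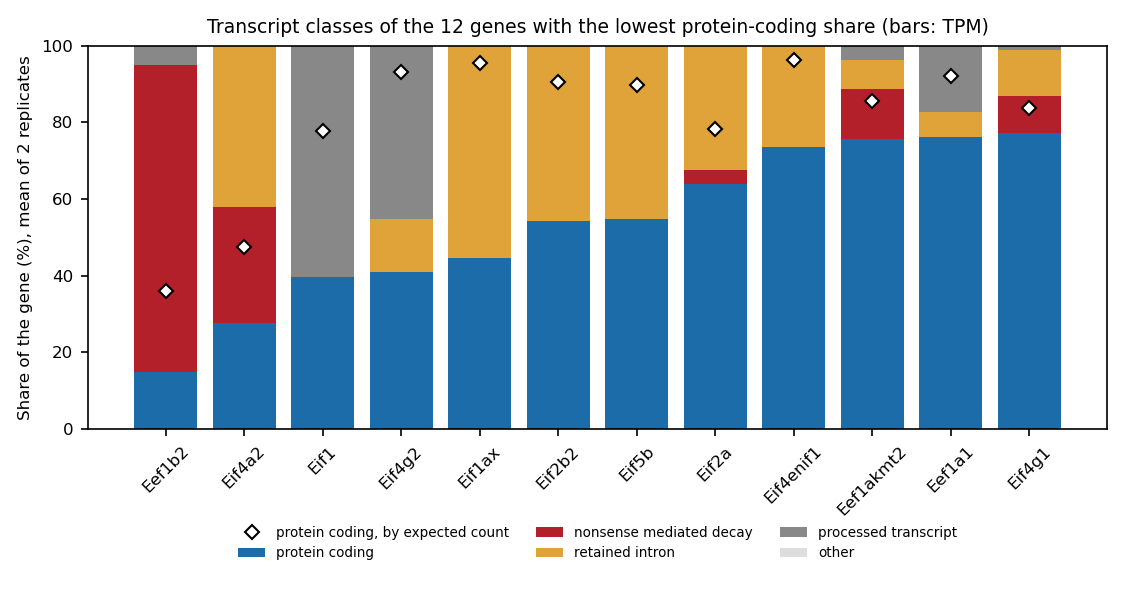
Share of each gene's TPM by annotated transcript class, in percent and as the mean of 2 replicates, for the 12 factors with the lowest protein-coding share; diamonds give the protein-coding share by expected count. Eef1b2 and Eif4a2 stay under 50% on both scales, and the diamonds of Eif1, Eif4g2 and Eif1ax lie at 77.7%, 93.01% and 95.4%.

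Between replicates the factors were close. Of the 61 with a mean of 20 or more counts, 56 differed by less than 1.2-fold in TPM. The median size of the difference in log2(TPM + 0.5) was 0.12 for the factors and 0.14 for all 11661 genes tested. Past 1.5-fold was 1 of 61 factors, Eif4ebp2, beside a background of 2.69% of all genes (0.858% higher and 1.84% lower in replicate 2). Its difference, replicate 2 minus replicate 1, was -1.05, from 134 and 55 counts. It was lower in replicate 2 under each scaling and pseudocount tried, and a minimum mean of 100 counts left it out, with 0 factors called.

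The next largest differences, in log2(TPM + 0.5), were 0.38 for Eif4a2, -0.34 for Eif5b, -0.29 for Eif4ebp1, -0.26 for Eif3b and -0.22 for Eef2. Only Eif4a2 of these was higher in replicate 2 under TPM, while scaling to the ERCC spike-in RNAs moved the median of all genes to 0.30 and made 60 factors higher and 1, Eif4ebp2, lower. The factors' median was then 0.28. Under that scaling 2 of 61 factors were past 1.5-fold, Eif4ebp2 and Eif4a2 (at 0.66), beside a background of 7.88% of all genes. Eef2 then stood at 0.09. Which scale is nearer the RNA content of the cells was not tested.

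**Figure D5:**
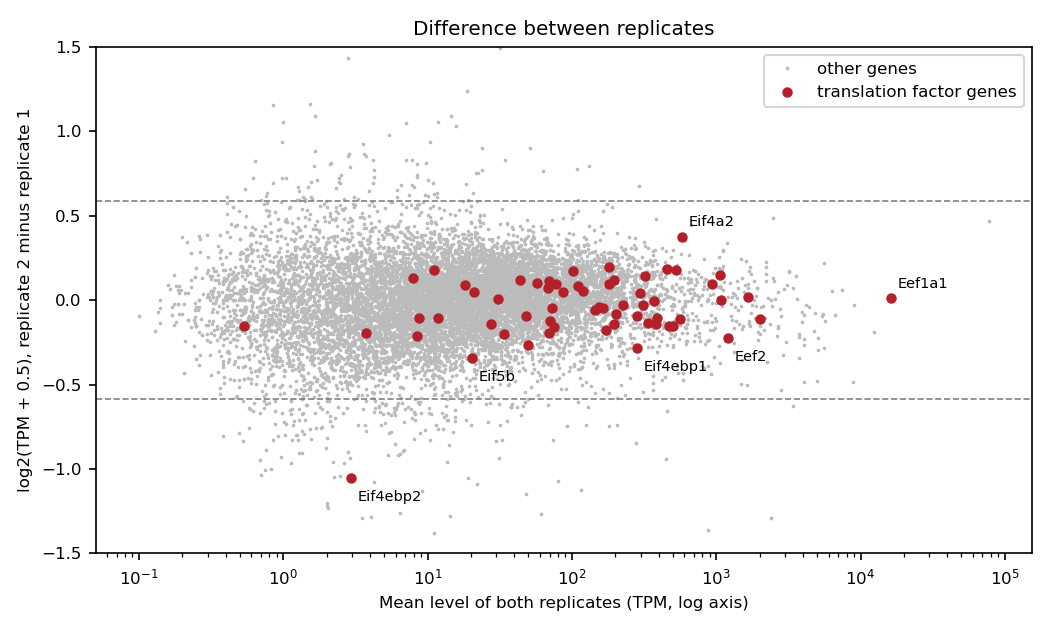
Difference between replicates in log2(TPM + 0.5), replicate 2 minus replicate 1, against the mean TPM of both (log axis), for 11661 genes, with the 61 tested factors in red; dashed lines mark 1.5-fold, and 14 other genes lie outside the axis limits. Eif4ebp2, at -1.05, is the only factor outside the dashed lines.

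Many of these small differences were larger than counting error. In an exact two-sided binomial test on counts with Benjamini-Hochberg adjustment over all genes, 31 of 61 factors passed 0.05, 11 higher and 20 lower in replicate 2, beside a background of 31.2% of all genes (15.3% higher and 15.9% lower). With TMM library sizes the split was 15 higher and 18 lower, a setting for which no share over all genes is given here. The test resolves smaller differences in genes with more counts. Both passing the test and past 1.2-fold in count share were 4 of 61, Eif3b, Eif4a2, Eif4ebp1 and Eif4ebp2, beside 11.3% of all genes. This test compares 2 libraries and covers counting error only, as do the floors, since no molecular identifiers separated copies made by PCR.

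Genes around the factors in the pathway were nearly all expressed. Of 59 genes in 8 lists, 57 were at 1 TPM or more in both replicates, beside 45.9% of all protein-coding genes. Of all genes tested between replicates, 0.858% were past 1.5-fold higher and 1.84% lower in replicate 2. Of the 57 list genes tested, 0 were past 1.5-fold higher and 1 lower. That gene was Trib3, a target of the eIF2 stress response, at 23.1 and 13.9 TPM, while Atf4, whose translation rises when eIF2 is phosphorylated, was at 620.4 and 542.8 TPM. The exceptions were Mcts2, at 1.17 and 0.72 TPM, and Gspt2, listed at 0, both relatives of expressed genes (Mcts1 at 140.8 and 167.4 TPM; Gspt1 at 111.4 and 113.7 TPM). All 11 cap-binding and poly(A)-binding partners were expressed (median 41.8 TPM; Pabpc1 at 510.2 and 447.4 TPM), and all 11 mTOR and MNK pathway genes (median 8.03 TPM; Mtor at 8.05 and 8.01 TPM). The 9 enzymes of hypusine and diphthamide synthesis, which modify eIF5A and eEF2, had a median of 44.6 TPM, and the 9 mitochondrial factors one of 29.02 TPM.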

How the data were processed

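Per the file headers, the authors deposited for each library expected counts of genes and transcripts (estimated reads, not normalized), with posterior mean counts and their SD. TPM and FPKM were also deposited by the authors, scaled by length and library. FPKM served only as an alternative for which genes were expressed. Alignments were to mm10 with GENCODE M4, per the accompanying text files; the aligner and the quantifier are not given in the sources used. In the labels the assay is called total RNA-seq, but poly(A)+ RNA over 200 nt is described.

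Symbols, transcript types and coordinates came from GENCODE M21 on GRCm38 by identifier without version; 6 of the 331 transcripts of the factors at 10 TPM or more had no type. Replicate numbers came from the labels. Counts were rounded for the binomial test. In simulated libraries with 11665 genes past the count minimum it called 81 of 100 genes changed 1.5-fold (2 of which fell under the minimum). It also called 50 of 100 changed 1.2-fold, and 6 of 11467 unchanged. The simulated libraries held counting error only, as the test assumes, so they do not measure its calls between real libraries. Differences used a pseudocount of 0.5, which understates those of low genes. TMM factors came from edgeR 4.0.16 in R 4.3.3, the rest from Python 3.11.15 with scipy 1.17.1. The floor behind 0 is 3 counts.

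The factors, lists and tests were chosen with earlier results of these data known. Named genes are the highest and lowest of each role, the family and complex members, and those under 1 TPM, past 1.5-fold, under 50% coding or over 50% shared; other names were added after their values were seen. Of the fixed B-lineage markers, 1 is not reported here.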

Additional observations from a re-analysis of the deposited data

How the results depend on the processing

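Of 111 alternatives over 25 results, 78 stayed within the replicate spread or, for counts of genes, within 1.5 times, and 33 moved. For paralogue shares, subunit ratios, median level and library share, leaving out a replicate could not count as a move. Either of 2 values always lies within their SD of the mean, so these alternatives say nothing about stability. In 2 of 10 families the highest gene changed: Eif4g1 led Eif4g2 by expected counts and on coding transcripts, and Eif3j1 led Eif3j2 by expected counts in replicate 2. No paired analysis was possible because there was only 1 group. By expected counts the shares were 83.5% for Eif4e, 44.9% for Eif4g2, 97.9% for Eif4ebp1, 83.4% for Eif1, 63.2% for Eif1a and 49.6% for Eif3j2. By coding transcripts they were 76.5% for Eif4a1, 47.7% for Eif4g2, 71.9% for Eif1 and 77.1% for Eif1a, and with the pseudogene Eif4a1 held 71.9%. By posterior mean TPM, Eef1a1 and Eif5a held 99.99984% and 99.99949% of their families. Subunit ratios by coding transcripts were 6.38 (eIF2B), 6.52 (eIF4F) and 6.20 (eEF1B), 4.89 for eIF2B by posterior mean TPM, and 18.9 for eIF3 without Eif3j1 and Eif3j2.

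Factors under 50% coding numbered 2 by expected counts, with a median coding share of 99.6%, or 98.7% by posterior mean TPM, and from 98.74% to 99.20% with a replicate left out. Over nuclear protein-coding genes the factors' median was 157.6 TPM and their share 4.41%, which was 3.27% by posterior mean TPM and 1.72% without Eef1a1. Factors past 1.5-fold between replicates numbered 2 of 65 with no filter (Eif4ebp3 added), beside 2.21% of all genes. At a mean of 100 or more counts they numbered 0 of 59 (Eif4ebp2 left out), beside 1.29%. With ERCC scaling they numbered 2 of 61, beside 7.88%. Factors outside counting error numbered 19 among the 44 with whole counts, for which no share over all genes is given here. Those also past 1.2-fold numbered 4 of 61, beside 11.3% of all genes. Runs at the RefSeq start numbered 1 of 49 with the C exactly at the start, beside 3.01% of all genes searched. With at least 7 more C or T they numbered 5 of 49, beside 5.17%. With 2 libraries, SDs are imprecise, and low genes such as Eif4ebp2 rest on few counts.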

Other observations

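Other annotated pseudogenes named after factor genes carried little RNA. Of 10 such names, 6 were in the tables. Eif3s6-ps1 was at 4.07 and 3.83 TPM, Eif5al3-ps at 5.32 and 4 TPM, and Eif1-ps1 at 3.42 and 0.49 TPM, from 8.1 and 1.13 counts. Eif1-ps3 was listed at 0 in both replicates. Eif3s6-ps2 was listed at 5.12 and 24.5 TPM from only 1 and 4 counts, over an effective length of 9.34 bases in replicate 1. Eif4a-ps4, described with Eif4a1, was the only one of the 6 above 100 TPM in both replicates.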
